A study of Homo sapiens with 6 samples.

Results

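The collagen genes encode the alpha chains of the collagens, and were taken as every gene whose symbol on the array platform is COL, a number, A and a number. Pseudogenes and antisense genes were left out. This gave 43 genes of the 18132 genes measured, with 121 probe sets between them. The comparison set 3 arrays of cells labelled CSF3 against 3 arrays of cells labelled Ctrl. All of them held biotin-labelled total RNA of one line by its label, HCT116, an epithelial line from a human colorectal carcinoma, grown in serum-containing medium and hybridised to Affymetrix arrays. CSF3 encodes granulocyte colony-stimulating factor. The labels give no clone, no vector and no dose, and do not say how CSF3 reached the cells. Whether a group's samples were separate cultures is likewise not stated, so the p-values measure only the spread between these arrays, which may be technical.

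A collagen is built from 3 alpha chains wound into a triple helix, either of one kind or of several gene products. Fibrillar collagens form the cables of skin, bone, tendon and cartilage, and type IV collagen forms the sheet of the basement membrane on which epithelial cells sit. The remaining classes decorate fibrils, anchor basement membranes, form filaments and small networks, or span the plasma membrane. Chains are hydroxylated and folded in the endoplasmic reticulum, secreted, trimmed, cross-linked and in time degraded. In intestine most fibrillar collagen comes from fibroblasts, while epithelial cells contribute to the basement membrane.

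Many collagen genes lie next to each other. Of the 43 genes, 17 had another collagen gene within 500 kb, in 9 neighbouring pairs (RefSeq, GRCh38.p14). The closest were COL4A1 and COL4A2 on chromosome 13, 126 bases apart, COL4A4 and COL4A3 on chromosome 2, 135 bases apart, and COL4A6 and COL4A5 on chromosome X, 379 bases apart. These pairs are known to be transcribed away from each other from the stretch between them. RefSeq windows from 250 bases before to 50 bases after an annotated start were held for 31 of the genes, some with several windows. The 5 windows below belong to the shared COL4A1 and COL4A2 start region, to 3 genes whose signal stood above the array's empty controls and was higher in CSF3, and to COL27A1, which was lower. The COL4A2 window also covers the start of COL4A1. The COL27A1 window lies inside the gene as annotated, which starts at base 114154098. Each is written 5′ to 3′ on the strand of its gene, with the letters CCAAT and GGGCGG, on either strand, in capitals.
COL4A2, chr13:110307034-110307333, plus strand: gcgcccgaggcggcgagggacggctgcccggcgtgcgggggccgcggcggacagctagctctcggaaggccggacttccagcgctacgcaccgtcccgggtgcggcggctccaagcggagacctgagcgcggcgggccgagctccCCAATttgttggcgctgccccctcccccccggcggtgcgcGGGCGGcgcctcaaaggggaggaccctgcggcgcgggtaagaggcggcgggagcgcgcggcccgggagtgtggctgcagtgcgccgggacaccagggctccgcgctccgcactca
COL4A6, chrX:108439409-108439708, minus strand: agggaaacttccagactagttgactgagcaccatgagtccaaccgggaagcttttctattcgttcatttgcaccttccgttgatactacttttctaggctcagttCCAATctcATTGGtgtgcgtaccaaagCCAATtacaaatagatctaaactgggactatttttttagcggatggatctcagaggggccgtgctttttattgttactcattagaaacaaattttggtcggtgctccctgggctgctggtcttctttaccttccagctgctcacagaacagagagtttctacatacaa
COL7A1, chr3:48595280-48595579, minus strand: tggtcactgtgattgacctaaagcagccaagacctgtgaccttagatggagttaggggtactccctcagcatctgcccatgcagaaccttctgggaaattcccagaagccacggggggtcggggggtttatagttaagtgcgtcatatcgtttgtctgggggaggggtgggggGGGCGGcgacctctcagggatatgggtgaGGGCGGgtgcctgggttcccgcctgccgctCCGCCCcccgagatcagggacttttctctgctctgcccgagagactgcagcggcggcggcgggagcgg
COL5A3, chr19:10010455-10010754, minus strand: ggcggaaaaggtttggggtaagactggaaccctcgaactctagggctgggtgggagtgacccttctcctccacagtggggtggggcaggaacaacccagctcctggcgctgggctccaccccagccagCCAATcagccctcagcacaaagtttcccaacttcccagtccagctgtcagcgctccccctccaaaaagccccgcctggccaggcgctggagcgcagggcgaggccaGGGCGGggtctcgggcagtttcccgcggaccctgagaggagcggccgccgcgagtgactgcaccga
COL27A1, chr9:114155287-114155586, plus strand: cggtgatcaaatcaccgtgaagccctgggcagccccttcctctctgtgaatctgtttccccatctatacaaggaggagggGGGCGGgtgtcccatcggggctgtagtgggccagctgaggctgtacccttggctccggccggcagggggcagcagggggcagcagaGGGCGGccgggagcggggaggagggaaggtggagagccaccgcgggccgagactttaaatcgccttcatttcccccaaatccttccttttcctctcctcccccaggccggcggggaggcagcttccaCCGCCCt
The printed COL4A6 window held CCAAT 3 times and GGGCGG 0 times, whereas the COL7A1 and COL27A1 windows each held GGGCGG 3 times and CCAAT 0 times. The 31 genes had 43 windows between them, so the shares that follow count windows and not genes. Over these 43 collagen windows the median GC content was 64%, against 58.7% over all 35116 windows. GGGCGG stood in 55.8% of collagen windows and 45.0% of all windows, CCAAT in 30.2% and 34.6%, and TATAAA in 16.3% and 11.5%. The AP-1 letters TGANTCA were found in 2.33% of collagen windows and 7.71% of all windows. The NF-kB motif occurred in 11.6% and 11.3%, and its collagen carriers were COL4A4, COL7A1, COL25A1, COL15A1 and COL6A2. These are letter matches on both strands and say nothing about binding.

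Before the collagen values, the arrays themselves differed between the groups. Pearson's r across probe sets was at least 0.995 between CSF3 arrays and 0.998 between Ctrl arrays, and 0.974 to 0.978 between the groups. The CSF3 arrays had a higher lower quartile (2.42 against 2.19 in Ctrl) and a lower upper quartile (5.38 against 5.63 in Ctrl), so dim probe sets sat higher and bright ones lower. The signal at the 3′ end minus that at the 5′ end, a sign of RNA quality, was 0.682 in CSF3 and 0.306 in Ctrl for GAPDH, and 1.94 in CSF3 and 1.34 in Ctrl for ACTB. All of these gave p = 0.1 in exact two-sided permutation tests, the lowest value open to groups of 3. The part of either shift in the collagen values was not tested. CSF3 itself read 5.97, 5.91 and 5.99 on the CSF3 arrays, against 5.13, 4.85 and 4.52 on the Ctrl arrays, a difference of 1.12 ± 0.14 (standard error, limma adjusted p = 0.000371). Of 8 epithelial markers 3 were called higher and 2 lower, where 45.4% of all genes were higher and 27.1% lower. KRT18, CLDN4 and KRT8, which are keratins and a tight junction protein, were bright, but the adhesion protein EPCAM (3.30 in CSF3 and 3.63 in Ctrl), CDH1, which encodes E-cadherin (2.24 in CSF3 and 2.20 in Ctrl), and VIL1 of the brush border (1.70 in CSF3 and 1.43 in Ctrl) read below the median gene, 4.46, although the label names an epithelial line.

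Most collagen genes read higher in CSF3. With 1 probe set per gene, the brightest, limma called 33 of the 43 higher, 3 lower and left 7 uncalled at an adjusted p under 0.05. This is 76.7% higher and 6.98% lower, against a background over all 18132 genes of 45.4% higher and 27.1% lower. The median change, CSF3 minus Ctrl on the log2 scale, was 0.42 over the collagen genes and 0.16 over all genes. On 30 genes every CSF3 array read above every Ctrl array, on 2 every one read below, and on 11 the groups overlapped; over all genes 47.2% and 29.1% were free of overlap in these directions. A signal change of at least 1.5-fold that also passed the test was found for 9 genes, all higher, against 9.19% of all genes higher and 11.6% lower. Among them COL1A2, COL4A3, COL5A2, COL19A1 and COL21A1 did not rise above the array's empty controls on any array. COL8A1 did not on its Ctrl arrays. For these the count is of signals as deposited and not of ratios of RNA. A change in the number of cells of a type and a change in RNA per cell cannot be told apart in such bulk samples.

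That excess has to be read against the level of the signals, since the shift between the groups depended on it. Among the dimmest 30% of genes, 65.3% of all genes were called higher and 2.43% lower, with a median change of 0.31. The 21 collagen genes there had 18 called higher and 0 lower, with a median of 0.42. Above that limit all genes were balanced, with 36.8% higher, 37.7% lower and a median of 0.0002, while the 22 collagen genes had 15 higher and 3 lower, with a median of 0.42. Most of these, 19, lay between the 30th and 60th percentile of level, where 14 collagen genes were higher and 1 lower and the background was 54.5% higher and 21.9% lower. Only COL6A1, COL18A1 and COL9A3 lay above the 60th percentile, 1 of them higher and 2 lower, where 23.6% of all genes were higher and 49.6% lower. After quantile normalization, which forces all arrays to one distribution, 18 collagen genes stayed higher, all of them also called as deposited, and 3 were lower. The median was then 0.25, against 0.13 over all genes. The higher calls were then 41.9% of the collagen genes, near the background of 39.2% higher, with 20.1% of all genes lower. Above the dimmest 30%, quantile normalization called 13 of the 22 collagen genes higher and 2 lower, with 45.9% of all genes higher and 25.9% lower. The median change there was 0.48 over the collagen genes and 0.15 over all genes.

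**Figure D1:**
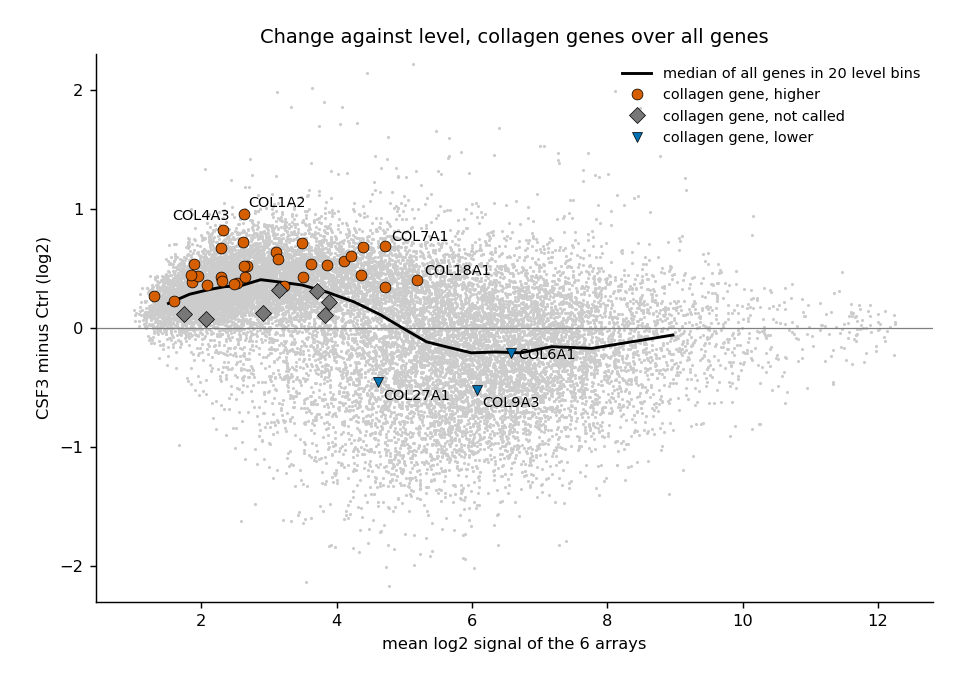
Change between the groups (CSF3 minus Ctrl, log2) against the mean log2 signal of the 6 arrays. Grey dots are the 18132 genes, the black line their median in 20 bins of level, and large symbols the 43 collagen genes; most collagen genes sit on the left, where the line itself is above 0, while COL27A1, COL6A1 and COL9A3 lie below 0.

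A yardstick for the dim end came from 17 control probe sets, the tags, that match no gene. Their highest single reading was 3.54, on CSF3 replicate 2, while their median on an array was 1.65 to 1.82, so 3.54 is a strict line. Their own changes between the groups ran from −0.04 to 0.40 with a median of 0.09. On all arrays 24 collagen genes stayed at or below 3.54, of which 21 were called higher, with a median change of 0.41. The share of all genes called on either side of this line was not counted. At another cut, the dimmest 30% (mean level up to 3.02), 65.3% of all genes were higher and 2.43% lower. Above that cut 36.8% were higher and 37.7% lower. For the 24 collagen genes at or below this line, a signal from RNA cannot be told from that of the brightest empty probe set. No fold is therefore given for them, and their log2 differences describe signals as deposited and not amounts of RNA. Above 3.54 on every array stood 12 genes, of which 7 were higher, 3 lower and 2 uncalled: COL5A3, COL11A2 and COL27A1 among fibrillar collagens, COL4A6, COL6A1, COL6A2, COL7A1, COL9A1, COL9A3, COL18A1, COL13A1 and COL25A1. The other 7 crossed the line. Signals of different probe sets do not rank amounts of RNA between genes.

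**Figure D2:**
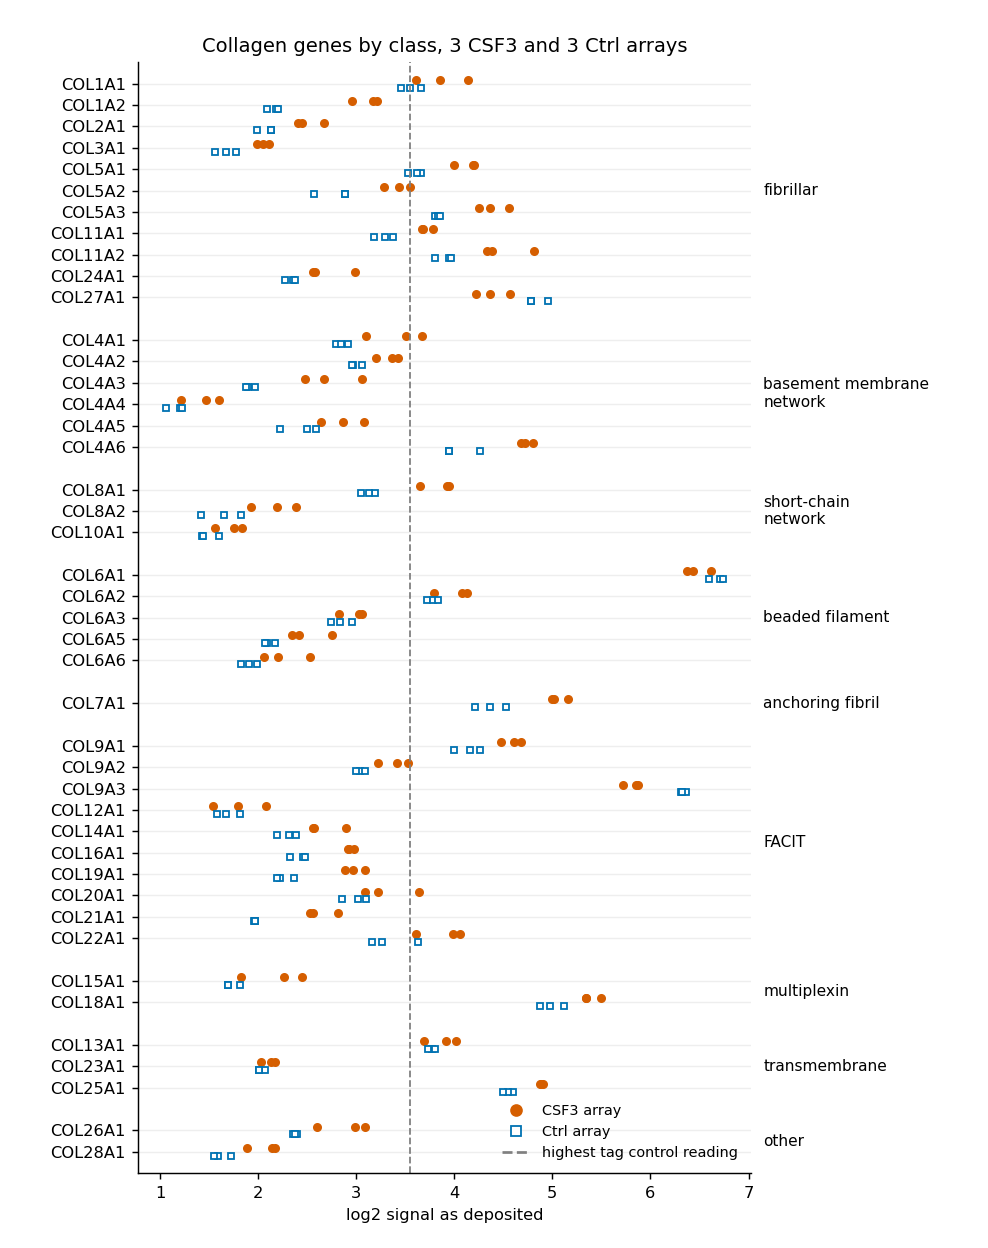
Log2 signal of the 43 collagen genes by class on 3 CSF3 arrays (filled circles) and 3 Ctrl arrays (open squares), with the highest reading of a tag control, 3.54, as a dashed line. COL6A1, COL9A3 and COL18A1 stand farthest to the right, and 24 genes stay at or left of the line.

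Fibrillar collagens numbered 11, of which 9 were higher, 1 lower (COL27A1) and 1 uncalled (COL1A1), with a median change of 0.43. Over all genes 45.4% were higher and 27.1% lower, and after quantile normalization 6 of the 11 were called higher. COL1A2, the second chain of type I collagen, had the smallest p of the family. It read 2.95, 3.21 and 3.17 on CSF3 arrays, against 2.18, 2.20 and 2.09 on Ctrl arrays. All 3 CSF3 arrays lay above the Ctrl arrays, by 0.95 ± 0.08 (limma adjusted p = 6.7e-05), yet all values were below the tag reading. When probe sets named _x_at or _s_at, which can bind several transcripts, were left out, its next probe set differed by 0.39 and missed the threshold (adjusted p = 0.0562). Its partner COL1A1 read 3.87 ± 0.27 in CSF3 and 3.56 ± 0.11 in Ctrl (SD, n = 3 each), a difference of 0.31 ± 0.13 with a limma adjusted p of 0.0649. It passed the threshold in 5 of the 14 other settings, among them with the mean of its probe sets (0.53, adjusted p = 0.000112), with trend and robust eBayes, with array weights and without CSF3 replicate 2 (0.44, adjusted p = 0.0111). Further, 3 of its dimmer probe sets were called higher, by 0.50, 0.71 and 1.01.

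Type V collagen, which sets the diameter of type I fibrils, was higher in all 3 of its chains, where 45.4% of all genes were higher. COL5A3 read 4.37, 4.56 and 4.25 on CSF3 arrays, against 3.80, 3.83 and 3.86 on Ctrl arrays, a 1.48-fold difference (0.57 ± 0.08, limma adjusted p = 0.000803). The 2 groups did not overlap and no reading fell below the tag line. COL5A1 gave 4.0, 4.19 and 4.20 in CSF3, against 3.66, 3.53 and 3.62 in Ctrl, a difference of 0.53 ± 0.07 (adjusted p = 0.000611). For COL5A2 the values were 3.54, 3.44 and 3.28 in CSF3, against 2.57, 2.89 and 2.89 in Ctrl, 0.64 ± 0.11 apart (adjusted p = 0.00146). Again every CSF3 array was above every Ctrl array, but no COL5A2 reading passed the tag line. Type XI collagen is the cartilage relative of type V. COL11A1 read 3.68, 3.67 and 3.78 in CSF3, against 3.37, 3.18 and 3.29 in Ctrl, a difference of 0.43 ± 0.07 (adjusted p = 0.00117). COL11A2 was 1.52-fold higher in CSF3 (4.51 ± 0.27 against 3.90 ± 0.09, SD, n = 3 each, adjusted p = 0.00459). All these calls were kept after quantile normalization.

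COL27A1, a fibrillar chain of cartilage, went the other way. It read 4.37, 4.22 and 4.57 on CSF3 arrays, against 4.96, 4.78 and 4.79 on Ctrl arrays. The groups did not overlap, and the change was −0.46 ± 0.10 (limma adjusted p = 0.00468), a CSF3 signal 0.729 times that of Ctrl. After quantile normalization it was −0.31 and still lower (adjusted p = 0.0355). COL2A1, the main collagen of cartilage (0.43 ± 0.08), COL3A1 of vessels and skin (0.38 ± 0.07) and COL24A1 (0.38 ± 0.12) were called higher, all below the tag line. Their quantile-normalized changes were 0.20, 0.16 and 0.17 and passed no threshold (adjusted p = 0.0966, 0.0752 and 0.245), and COL24A1 also lost its call without Ctrl replicate 1 (0.35, adjusted p = 0.0677).

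All 6 chains of type IV collagen, the network of the basement membrane, were called higher, with a median change of 0.50, where 45.4% of all genes were higher. In the dimmest 30%, where 65.3% of all genes were higher, lay 3 of the 6, and 3 stayed called after quantile normalization. COL4A6 was the only type IV chain above the tag line throughout. It read 4.68, 4.72 and 4.80 on CSF3 arrays, against 4.26, 3.94 and 3.94 on Ctrl arrays, a 1.61-fold difference (0.68 ± 0.10, limma adjusted p = 0.000665). The groups were clearly apart on its brightest probe set, but its 7 probe sets gave changes from −0.08 to 0.68, and 3 were called. COL4A3, a chain of the kidney filter membrane, gave 2.48, 3.06 and 2.67 in CSF3, against 1.89, 1.97 and 1.87 in Ctrl. All of these are below the tag line and do not overlap, 0.83 ± 0.14 apart (adjusted p = 0.00146). Its other probe set, dimmer still, had a change of 0.03 and was not called.

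The ubiquitous chains COL4A1 and COL4A2, which share the start region printed above, differed by 0.58 ± 0.14 (limma adjusted p = 0.00711) and 0.34 ± 0.07 (adjusted p = 0.00506). COL4A1 averaged 3.43 ± 0.29 in CSF3 and 2.85 ± 0.06 in Ctrl, and COL4A2, below the tag line on all arrays, 3.33 ± 0.12 in CSF3 and 3.00 ± 0.06 in Ctrl (SD, n = 3 each). COL4A5, the head-to-head neighbour of COL4A6, differed by 0.42 ± 0.13 and COL4A4, the neighbour of COL4A3, by 0.26 ± 0.10 with overlapping groups. COL4A2, COL4A4 and COL4A5 were not called after quantile normalization (0.20, 0.13 and 0.22; adjusted p = 0.0725, 0.292 and 0.21). The calls of COL4A4 and COL4A5 were also lost without single arrays. For COL4A4 leaving out any array but CSF3 replicate 1 did so (changes of 0.18 to 0.29), and for COL4A5 leaving out CSF3 replicate 1, CSF3 replicate 3 or Ctrl replicate 3 did (0.42, 0.32 and 0.31).

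COL7A1 forms the anchoring fibrils that tie the basement membrane of stratified epithelia to the tissue below. It read 5.0, 5.16 and 5.01 on CSF3 arrays, against 4.37, 4.21 and 4.53 on Ctrl arrays. This 1.61-fold difference (0.69 ± 0.09, limma adjusted p = 0.000509) stood well above the tag line with no overlap, and became 0.85 after quantile normalization. Only 1 probe set measured it. Among the multiplexins, proteoglycan collagens of basement membrane zones, COL18A1, the source of endostatin, read 5.49, 5.34 and 5.34 in CSF3, against 4.88, 5.12 and 4.97 in Ctrl. It was 1.32-fold higher (0.40 ± 0.08, adjusted p = 0.00299) and 0.62 higher after quantile normalization. Its second probe set, with a change of 0.16, was not called. COL15A1 averaged 2.18 ± 0.32 in CSF3 and 1.74 ± 0.07 in Ctrl (0.44 ± 0.15, adjusted p = 0.0289). It lost its call after quantile normalization (0.22, adjusted p = 0.225) and without any one array other than CSF3 replicate 3 (0.31 to 0.48).

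The 3 short-chain network collagens were all called higher, where 45.4% of all genes were. In the dimmest 30%, where 65.3% of all genes were higher, lay 2 of them, and 1 stayed called after quantile normalization. COL8A1, a collagen of vessel walls and of the cornea, read 3.92, 3.65 and 3.95 on CSF3 arrays, against 3.19, 3.13 and 3.05 on Ctrl arrays. Its groups lay apart by 0.71 ± 0.09 (limma adjusted p = 0.000429), on 1 of its 3 probe sets. COL8A2 differed by 0.54 ± 0.14 and COL10A1, of hypertrophic cartilage, by 0.23 ± 0.09, both among dim readings. Neither was called after quantile normalization (0.32 and 0.04; adjusted p = 0.0879 and 0.719). COL10A1, whose groups overlapped, also lost its call without CSF3 replicate 2 or 3 or Ctrl replicate 1 or 3 (0.17 to 0.21).

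Type VI collagen, which forms beaded filaments around cells, was mixed. Of its 5 chains 2 were higher, 1 lower and 2 uncalled, beside 45.4% higher and 27.1% lower over all genes. COL6A1 gave the brightest signal of the family, with 6.62, 6.37 and 6.44 on CSF3 arrays, against 6.71, 6.74 and 6.60 on Ctrl arrays. The groups overlapped, and the change of −0.21 ± 0.08 just passed (limma adjusted p = 0.0428), turned to 0.031 after quantile normalization and lost its call without CSF3 replicate 2 or 3 or Ctrl replicate 1 or 2 (−0.20 to −0.16). Its probe sets disagreed. Fitted among all probe sets, this brightest one missed the threshold (adjusted p = 0.0506). The next brightest read 5.82, 5.70 and 5.81 in CSF3, against 5.55, 5.65 and 5.61 in Ctrl, and was called higher by 0.17. The fifth read 3.23, 3.12 and 3.11 in CSF3, against 3.35, 3.30 and 3.41 in Ctrl, and was called lower by 0.20 (a change of −0.20). No other collagen gene had probe sets called in both directions.

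The partner chain COL6A2 averaged 4.0 ± 0.18 in CSF3 and 3.78 ± 0.05 in Ctrl and COL6A3 2.97 ± 0.12 in CSF3 and 2.85 ± 0.11 in Ctrl (SD, n = 3 each), neither called (adjusted p = 0.0633 and 0.211). COL6A2 passed without CSF3 replicate 1 (0.32, adjusted p = 0.0037), with array weights (adjusted p = 0.0374) and without _x_at and _s_at probe sets (0.18, adjusted p = 0.0428), and COL6A3 had a change of 0.13 that turned to −0.047 after quantile normalization. COL6A5 (0.39 ± 0.11) and COL6A6 (0.36 ± 0.12) were called higher at dim levels and lost this after quantile normalization (0.17 and 0.14; adjusted p = 0.201 and 0.328). COL6A6 lost it also without Ctrl replicate 1 (0.32) or Ctrl replicate 2 (0.36).

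Fibril-associated collagens with interrupted triple helices, the FACIT class, sit on the surface of fibrils. Of 10 measured, 7 were higher, 1 lower and 2 uncalled, beside 45.4% higher and 27.1% lower over all genes. After quantile normalization 5 of the 10 were called higher. Type IX collagen, which covers cartilage fibrils, split between its chains. COL9A3 read 5.85, 5.72 and 5.87 on CSF3 arrays, against 6.31, 6.37 and 6.32 on Ctrl arrays, a change of −0.52 ± 0.06 (limma adjusted p = 0.000278). The groups were far apart and the CSF3 signal was 0.698 times that of Ctrl. COL9A1 read 4.61, 4.68 and 4.47 in CSF3, against 4.0, 4.16 and 4.26 in Ctrl, a 1.36-fold higher signal (0.45 ± 0.09, adjusted p = 0.00285). COL9A2, below the tag line throughout, averaged 3.39 ± 0.16 in CSF3 and 3.04 ± 0.05 in Ctrl (SD, n = 3 each), a difference of 0.35 ± 0.08 (adjusted p = 0.00761), which was 0.22 and uncalled after quantile normalization (adjusted p = 0.0823). COL9A3 remained lower after it (−0.26, adjusted p = 0.00566) and COL9A1 higher (0.56).

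The other FACIT genes lay among the dimmest 30% of genes, except COL20A1 and COL22A1. COL19A1 had 2.88, 2.97 and 3.09 on CSF3 arrays, against 2.22, 2.19 and 2.36 on Ctrl arrays, 0.72 ± 0.08 apart (limma adjusted p = 0.000174). COL16A1 had 2.98, 2.93 and 2.92 in CSF3, against 2.46, 2.48 and 2.32 in Ctrl, 0.52 ± 0.06 apart (adjusted p = 0.00027). COL21A1 had 2.53, 2.81 and 2.56 in CSF3, against 1.96 on each Ctrl array, 0.67 ± 0.08 apart (adjusted p = 0.000336). None of these overlapped, and all were kept after quantile normalization. COL22A1, of tissue junctions, was higher by 0.54 ± 0.16 with overlapping groups, a call lost without CSF3 replicate 1 or 3 or Ctrl replicate 2 or 3 (0.44 to 0.49). After quantile normalization it was still called (0.51, adjusted p = 0.0315). COL14A1 was higher by 0.37 ± 0.10 but not after quantile normalization (0.16, adjusted p = 0.215) or without Ctrl replicate 3 (0.32). COL20A1 had a change of 0.32 ± 0.14 (adjusted p = 0.0741) that passed without CSF3 replicate 3 (0.44, adjusted p = 0.0258) and with trend and robust eBayes (adjusted p = 0.0441). COL12A1 had one of 0.11 ± 0.13 (adjusted p = 0.456), which was −0.088 after quantile normalization and −0.022 without CSF3 replicate 1, although its 3 dimmer probe sets were called higher, by 0.30 to 0.37.

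Membrane-spanning collagens carry a triple helix outside the cell. COL25A1, known from neurons, read 4.88, 4.91 and 4.88 on CSF3 arrays, against 4.60, 4.54 and 4.50 on Ctrl arrays. It was 1.27-fold higher with little spread (0.34 ± 0.05, limma adjusted p = 0.000963), and 0.51 higher after quantile normalization. COL13A1 averaged 3.88 ± 0.17 in CSF3 and 3.77 ± 0.03 in Ctrl and was not called (0.11 ± 0.09, adjusted p = 0.28). It passed without CSF3 replicate 1 (0.20, adjusted p = 0.024), but its second probe set was called lower, with a change of −0.32. COL23A1 averaged 2.11 ± 0.07 in CSF3 and 2.03 ± 0.04 in Ctrl, uncalled as deposited (0.08 ± 0.06, adjusted p = 0.253) and lower after quantile normalization (−0.15, adjusted p = 0.0458). COL26A1 (0.52 ± 0.12) and COL28A1 (0.44 ± 0.09), which belong to no larger class, were called higher at dim levels as deposited but not after quantile normalization (0.31 and 0.23; adjusted p = 0.0739 and 0.0572).

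**Figure D3:**
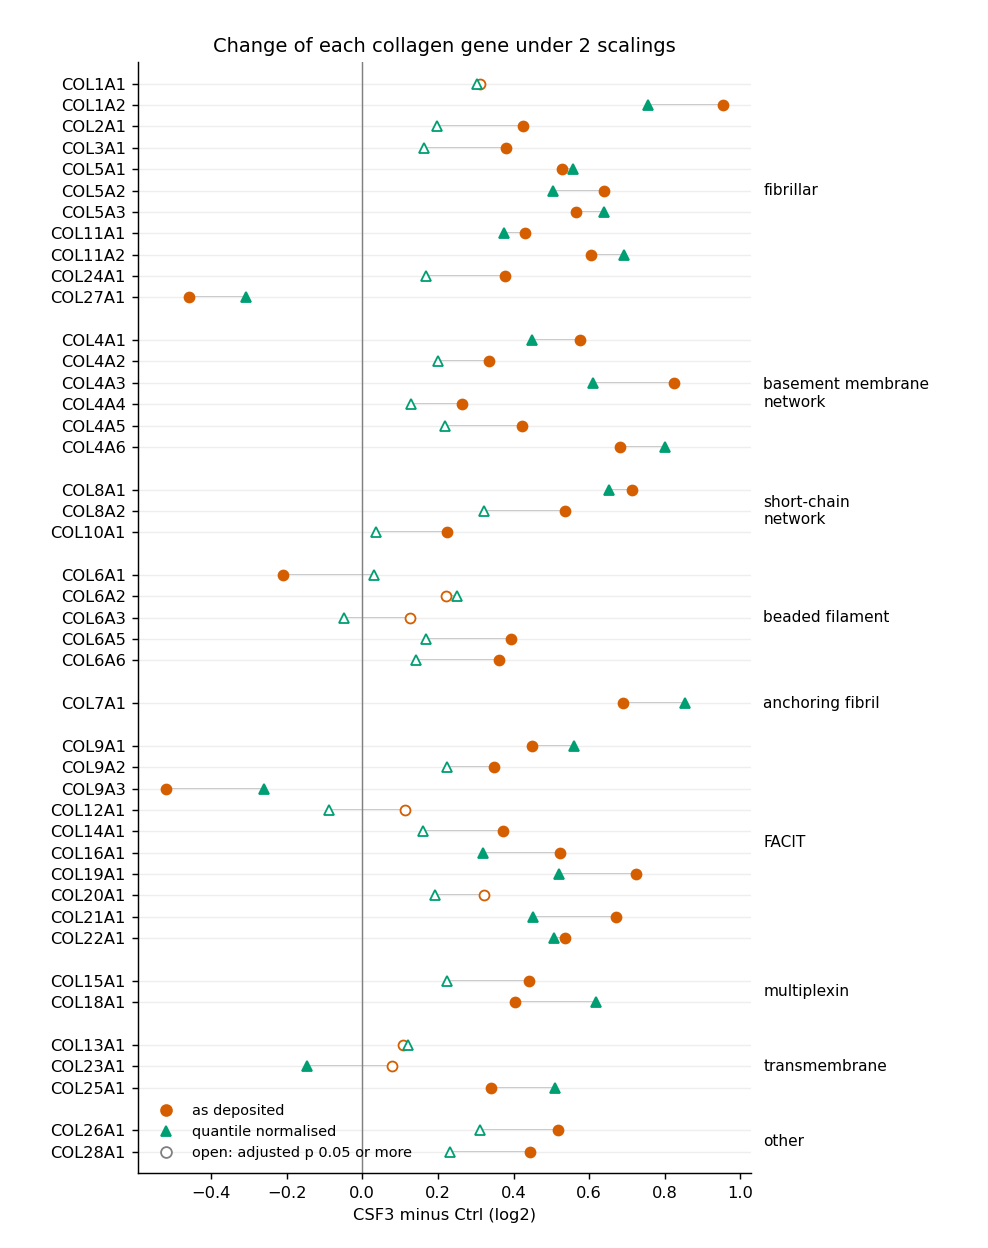
Change of each collagen gene (CSF3 minus Ctrl, log2), as deposited (circles) and after quantile normalization (triangles); filled symbols have a limma adjusted p under 0.05. The filled circles to the right of 0 number 33 and the filled triangles 18, and COL9A3 and COL27A1 lie left of 0 in both.

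Chains of one collagen type can be set against each other on each array. This cancels a factor common to both probe sets but not a shift that depends on level. Every pair of genes with the same type number was taken, whether or not their chains are known to assemble together. Over these 34 pairs in 7 collagen types, the difference between the chains did not overlap between the groups in 10 pairs. The same count was not made over pairs of other genes, so it is no result about collagen chains. Over single genes, 47.2% were free of overlap with CSF3 above Ctrl and 29.1% with CSF3 below. COL9A1 minus COL9A3 was −1.24, −1.04 and −1.40 on CSF3 arrays, against −2.31, −2.21 and −2.06 on Ctrl arrays, a shift of 0.97. COL9A2 minus COL9A3 shifted by 0.87. For type I, COL1A1 minus COL1A2 was 1.19, 0.40 and 0.68 in CSF3, against 1.48, 1.25 and 1.46 in Ctrl, a shift of −0.64. COL9A2 and COL1A2 stay below the tag line on all arrays, so the shifts that involve them are differences of signals only. For each of these the exact two-sided permutation p was 0.1, the smallest possible, and the lowest value after Benjamini-Hochberg adjustment over the 34 pairs was 0.34. The test cannot pass a threshold of 0.05 with 3 arrays a group, whatever the shift, so these values are a description.

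Across all 121 collagen probe sets, fitted with every single-gene probe set, 66 were higher and 4 lower, with a background of 36.7% higher and 28.8% lower. After quantile normalization 32 were higher and 5 lower, with 28.0% of all probe sets higher and 25.1% lower, so that the higher calls were no more frequent than over all probe sets. The 78 probe sets that were not the brightest of their gene had a smaller median change, 0.20, than the brightest of each gene, 0.42, with 35 higher and 2 lower. Of 29 genes with several probe sets, 5 had changes of both signs: COL4A6, COL6A1, COL6A2, COL8A1 and COL13A1. The share of a gene's probe sets called higher varied, with 6 of 7 for COL11A1, 3 of 3 for COL21A1, 3 of 6 for COL5A2, 2 of 4 for COL5A1, 2 of 6 for COL1A2 and 1 of 2 for COL19A1.

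**Figure D4:**
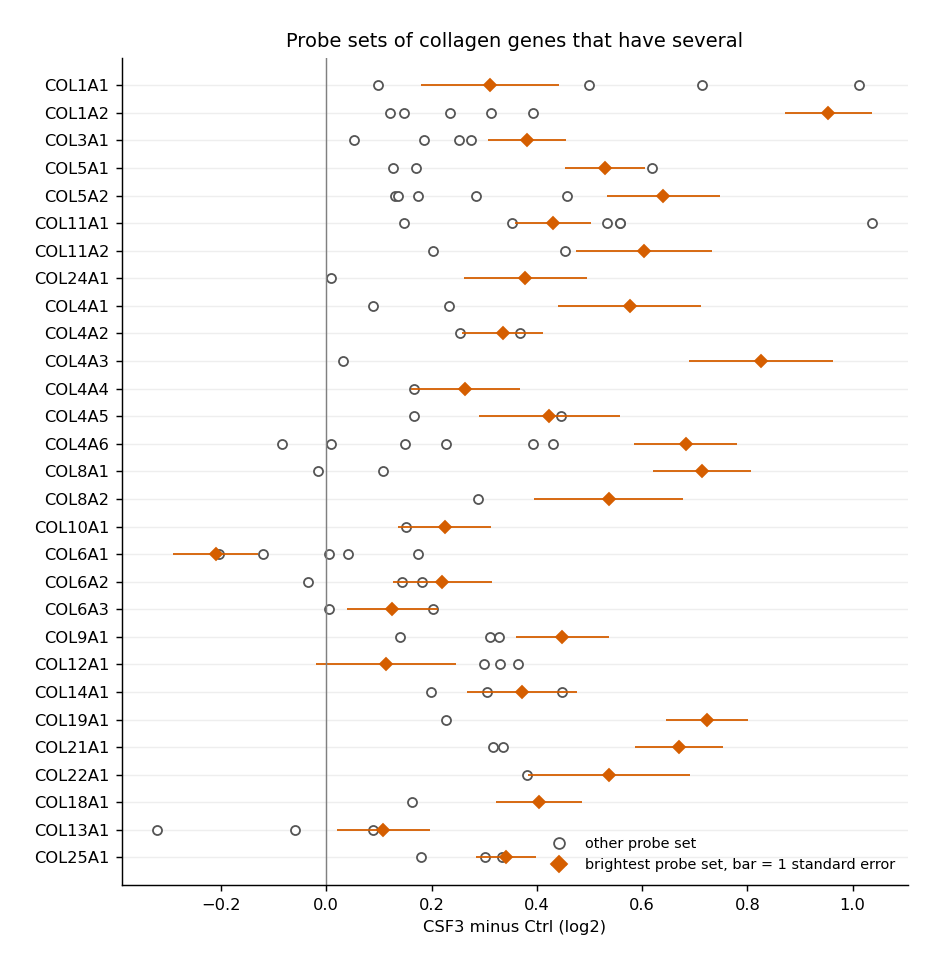
Change of every probe set (CSF3 minus Ctrl, log2) for the 29 collagen genes with several; diamonds are the brightest probe set of a gene with its standard error, circles the others. Most lie right of 0, and the 6 probe sets of COL6A1 fall on both sides, from −0.21 to 0.17.

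Markers of fibroblasts and endothelium were also mostly higher. Of 8 fibroblast markers 6 were called higher and 0 lower; their mean level was 2.65 to 2.80 on CSF3 arrays, against 2.34 to 2.36 on Ctrl arrays. DCN, the proteoglycan decorin, read 2.71 ± 0.20 in CSF3 and 1.97 ± 0.11 in Ctrl (SD, n = 3 each), and 6 of the 8 lay in the dimmest 30% of genes, where 65.3% of all genes were called higher. After quantile normalization 4 of the 8 were called higher. All 4 endothelial markers were also higher, as were 2 of 4 smooth muscle and pericyte markers and 1 of 3 leukocyte markers. So were 2 of 3 markers of Schwann cells and cartilage, while 1 smooth muscle and 1 leukocyte marker were lower. Over all genes 45.4% were called higher and 27.1% lower. Between the 30th and 60th percentile of level 54.5% of all genes were higher. No marker can be called absent, since no detection calls were used. Their part in the collagen values was not tested.

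The genes that make, bind and degrade collagen did not move as one. Of 55 measured, 25 were higher, 18 lower and 12 uncalled, with a median change of 0.17, close to the 0.16 of all genes. The shares, 45.5% higher and 32.7% lower, stand beside 45.4% and 27.1% of all genes. The lower calls went with level: above the 60th percentile 57.1% of the handling genes and 49.6% of all genes were lower. Among the 18 for modification and folding in the endoplasmic reticulum, 4 were higher, 9 lower and 5 uncalled. P4HA1, a catalytic subunit of prolyl 4-hydroxylase, read 6.68, 6.62 and 6.56 on CSF3 arrays, against 7.45, 7.42 and 7.32 on Ctrl arrays, a change of −0.78 ± 0.06 (limma adjusted p = 5.14e-05). P4HB, its partner subunit, changed by −0.54 ± 0.05 and CRTAP, part of the prolyl 3-hydroxylation complex, by −0.65 ± 0.05. These 3 were bright and lower on every CSF3 array. PLOD2, a lysyl hydroxylase, was higher at dim levels (2.47 ± 0.13 in CSF3 and 2.01 ± 0.09 in Ctrl, adjusted p = 0.00186). SERPINH1, the collagen chaperone HSP47, was 7.33 ± 0.07 in CSF3 and 7.31 ± 0.05 in Ctrl and not called as deposited (adjusted p = 0.861), but was higher by 0.22 after quantile normalization (adjusted p = 0.0113).

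Export and propeptide processing had 6 genes higher, 3 lower and 3 uncalled of 12, where 45.4% of all genes were higher and 27.1% lower. TLL1, a propeptide protease, read 3.05, 2.69 and 2.83 in CSF3, against 1.91, 1.90 and 1.62 in Ctrl (1.05 ± 0.11, limma adjusted p = 0.000203), with no overlap but all readings below the tag line. PCOLCE, which speeds that cleavage, was higher by 0.48 ± 0.05, and SEC24D, a coat protein of collagen export, had a change of −0.44 ± 0.06. Of the 5 cross-linking oxidases 4 were higher and 1 lower. LOX averaged 5.02 ± 0.02 in CSF3 and 4.56 ± 0.06 in Ctrl (adjusted p = 0.000323) and LOXL3 3.92 ± 0.13 in CSF3 and 3.49 ± 0.14 in Ctrl (adjusted p = 0.00487). LOXL1 averaged 3.13 ± 0.20 in CSF3, below the tag line, and 3.93 ± 0.07 in Ctrl (adjusted p = 0.000401).

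Receptors had 6 higher, 2 lower and 2 uncalled of 10, again beside 45.4% higher and 27.1% lower over all genes. ITGA2, the alpha subunit of the main epithelial collagen integrin, read 4.02, 4.0 and 4.31 on CSF3 arrays, against 5.08, 4.97 and 5.06 on Ctrl arrays. It changed by −0.93 ± 0.09 (limma adjusted p = 0.000135), and its beta partner ITGB1 by −0.23 ± 0.05 (adjusted p = 0.00432). MRC2, an endocytic collagen receptor, was higher by 0.74 ± 0.09 (adjusted p = 0.000301) and the receptor kinase DDR1 by 0.22 ± 0.06 (adjusted p = 0.0162). The 10 breakdown genes split into 5 higher, 3 lower and 2 uncalled. MMP1, the interstitial collagenase, read 3.14, 3.02 and 3.03 in CSF3, against 4.95, 4.89 and 4.87 in Ctrl, a change of −1.84 ± 0.06 (adjusted p = 7.89e-06). The CSF3 readings are below the tag line, so this is a difference of signals and not a measured ratio of RNA. CTSL, a lysosomal protease, had a change of −0.91 ± 0.05, whereas the collagenase MMP13 was higher by 0.79 ± 0.08 (4.54 ± 0.11 in CSF3 and 3.75 ± 0.13 in Ctrl). MMP14, a membrane-bound collagenase, was 6.0 ± 0.16 in CSF3 and 6.0 ± 0.04 in Ctrl, uncalled as deposited (adjusted p = 0.966) and higher by 0.27 after quantile normalization (adjusted p = 0.0226).

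**Figure D5:**
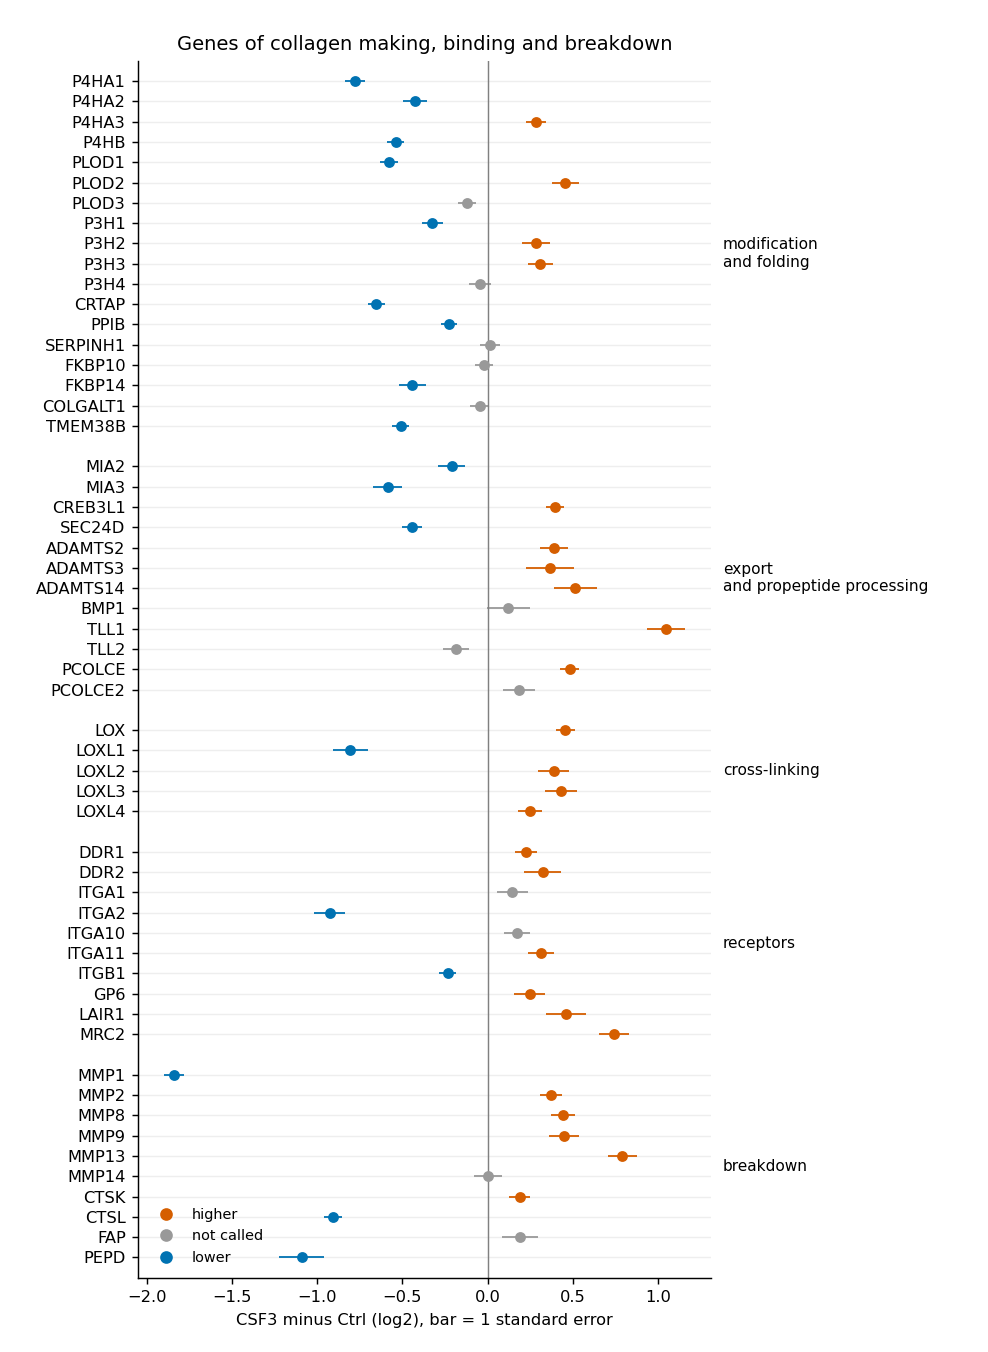
Change (CSF3 minus Ctrl, log2) with its standard error for 55 genes in 5 lists of collagen making, binding and breakdown. Higher, lower and uncalled genes stand in all lists except cross-linking, which has 0 uncalled, and MMP1 lies farthest left at −1.84.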

How the data were processed

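Total RNA of 6 samples, 3 labelled CSF3 and 3 labelled Ctrl, was measured on Affymetrix arrays, per the labels. The values were used as the authors deposited them, as summarised signals of 49395 probe sets on what their range shows to be a log2 scale. How they were summarised and normalized, and the base of the logarithm, is not given in the sources used here; another base would change the folds but not the tests. By the platform annotation 44988 probe sets have 1 gene, 1832 several, 2473 none and 102 are controls, and only the first were used. The probe set of highest mean stood for its gene. All 43 collagen symbols matched RefSeq, and 0 changed.

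CSF3 minus Ctrl was fitted over all 18132 genes in limma 3.58.1 (lmFit, eBayes) under R 4.3.3, with Benjamini-Hochberg adjustment over all genes and a threshold of 0.05. Changes are given with their standard error and means with their SD. The collagen genes, the lists and the tests were chosen with earlier results of these data known, and the 5 handling lists and the lists of cell markers support nothing by themselves. The rule for named genes gives each array's value for the 14 collagen genes with the smallest p, the 8 brightest and any with probe sets called in opposite directions; from each handling list it names the 3 of smallest p, plus SERPINH1, P4HA1, PLOD2, LOX, DDR1, ITGA2 and MMP14. The number of arrays limits the precision. Alternatives were quantile normalization, array medians subtracted, no dim genes, other choices of probe set, other variance settings, weighted arrays, a block on replicate number, a change of at least 0.5 and leaving out each array in turn; those for the handling lists and probe sets were added once the data had been seen. Simulated data were used to test the fit.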

Additional observations from a re-analysis of the deposited data

Results flagged for a closer look

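Probe sets outside the comparison also differed between the groups. The 18 hybridisation control probe sets, whose targets are normally spiked into the hybridisation mix, had a median of 8.36 on CSF3 arrays and 6.82 on Ctrl arrays, a difference of 1.53. The 24 poly-A control probe sets, whose targets are normally spiked in before labelling, had a median of 5.61 on CSF3 arrays and 4.09 on Ctrl arrays, a difference of 1.52. Both gave p = 0.1 in exact two-sided permutation tests, the lowest value open to groups of 3. Their part in the collagen values was not tested. COL18A1-AS1, the antisense gene left out of the collagen genes, read 3.58, 3.47 and 3.54 in CSF3, against 3.02, 3.15 and 3.15 in Ctrl, a difference of 0.42 (limma adjusted p = 0.000771), beside 0.40 for COL18A1.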

How the results depend on the processing

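Of the 43 collagen genes, 18 kept their direction and their side of the threshold in every refit in which they were tested, of 14 refits, 16 of them higher and 2 lower (COL9A3 and COL27A1). The rule of a change of at least 0.5 is no refit and is not counted there; COL27A1, COL11A1, COL9A1, COL18A1 and COL25A1 of these 18 fall short of it. Of the 18, COL4A3, COL16A1, COL19A1 and COL21A1 are among the dimmest 30% and were not tested without dim genes. COL5A3, COL7A1, COL9A3, COL16A1 and COL27A1 have 1 probe set each. For them the refits with other choices of probe set used the same values and tested no other choice. Quantile normalization ended the calls of 16 genes, moved the number of collagen genes called higher to 18, the median change to 0.25 and the probe sets called higher to 32, and turned COL12A1 (−0.088), COL23A1 (−0.15), COL6A1 (0.031) and COL6A3 (−0.047). Without the 30% dimmest genes, 22 collagen genes were tested and 15 were higher, as were 4767 of all genes and 15 handling genes. Requiring a change of at least 0.5 left 16 collagen genes higher and 1 lower, 2720 of all genes higher and 2543 lower, and 4 handling genes higher and 11 lower. The mean of all probe sets gave a median of 0.33 and turned COL13A1 to −0.046. Without _x_at and _s_at probe sets COL13A1 was −0.32 (adjusted p = 0.00291), COL6A1 0.041, and COL1A2 lost its call. For COL12A1 leaving out single arrays gave −0.022 to 0.24.

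Leaving out each array in turn gave 27 to 32 collagen genes higher and 2 to 3 lower, a median change of 0.38 to 0.44, 6948 to 7940 of all genes higher and 4428 to 4951 lower, 20 to 25 handling genes higher and 17 to 18 lower, and 51 to 65 collagen probe sets higher and 3 to 5 lower. Samples with the same replicate number showed little shared deviation (r of 0.04, 0.03 and 0.03), although each CSF3 array correlated best with the Ctrl array of its own number. Correlations this weak cannot decide whether the numbers pair the samples. With the replicate number as a block 34 collagen genes were higher and 3 lower. The depth of an array signal is set by its background: 24 collagen genes stayed at or below the highest reading of probe sets that match no gene.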

Other observations

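VIM, the intermediate filament protein vimentin, was chosen after its values were seen. It read 7.48, 7.45 and 7.48 on CSF3 arrays, against 8.35, 8.42 and 8.36 on Ctrl arrays, a change of −0.91 ± 0.05 (limma adjusted p = 1.59e-05). This bright gene of mesenchymal cells lay above the 60th percentile of level, where 49.6% of all genes were called lower and 23.6% higher.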
